A study of Danio rerio with 7 samples.

Results

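The genes described here are 3 zebrafish hmga genes, which encode small DNA-binding proteins of the high mobility group A, and 4 regulators of methylation at lysine 27 of histone H3. They are hmga1a (ENSDARG00000028335), hmga1b (ENSDARG00000070951), hmga2 (ENSDARG00000069912), ezh1 (ENSDARG00000037894), ezh2 (ENSDARG00000010571), kdm6bb (ENSDARG00000056929) and cbx7a (ENSDARG00000038025). The first pair was looked up by identifier and the others by symbol, ignoring case, and the name table writes hmga2 and ezh2 in capitals. All 7 were found among the 4449 genes that the authors divided over 8 modules. The members were chosen with earlier results of these data known, so finding all 7 is no result.

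The hearts came from adult zebrafish with the nppa:mCitrine reporter, which both genotypes carried, taken 7 days after cryoinjury, in which a part of the ventricle is killed by freezing. Cells were dissociated from the ventricles and sorted by the reporter at 1 cell per well into plates, and the labels call them border zone cardiomyocytes, the muscle cells next to the wound. There were 3 wildtype plates and 4 hmga1a mutant plates. The mutant allele, the ages and the number of fish behind each plate were not stated in the labels read here. The module lists name genes and carry no value per plate or per cell, so no level, depth or replicate error is known for any gene below, and wildtype could not be compared with mutant. Lying in a module is not a direction of change. Of the cardiomyocyte markers checked, 5 of 10 had a symbol in the name table and all 5 lay in a module, myl7 and tnnc1a in module 7, nppa in module 5, nppb in module 2 and identifiers named myh6 in modules 4 and 6. Of 18 markers of endothelial cells, leukocytes, fibroblasts and erythrocytes, 12 had a symbol and 8 lay in a module. These were cdh5, ptprc, lcp1, col1a1a and gata1a in module 1, flt1 and coro1a in module 3 and col1a2 in module 4. Of all identifiers with a symbol in the name table, 12.5% lay in a module.

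Hmga proteins bind the minor groove of AT-rich DNA through short AT-hook motifs and change how DNA is bent and packed. Trimethylation of histone H3 at lysine 27 (H3K27me3) marks genes held silent by Polycomb proteins. The Polycomb repressive complex PRC2 places it through its catalytic subunits Ezh1 or Ezh2, demethylases of the Kdm6 family remove it, and chromodomain proteins of the Cbx family, as parts of the complex PRC1, bind it. The published account of this study, which was not read here, is understood to report that Hmga1 lowers H3K27me3 in heart muscle cells. That account is background here, and H3K27me3 itself was not analysed here.

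The hmga genes lay in both modules that held more than 1 member. Module 5, with 494 genes, held hmga1a, the gene mutated in the study, together with hmga2. Its paralogue hmga1b lay in module 4, with 475 genes, beside kdm6bb, a demethylase that removes methyl groups from lysine 27. The methyltransferase genes ezh1 and ezh2 were apart, ezh1 in module 2 (600 genes) and ezh2 in module 3 (357 genes). The reader cbx7a lay alone in module 1, which with 1543 genes holds 34.7% of all module genes. No member lay in modules 6, 7 or 8.

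**Figure D1:**
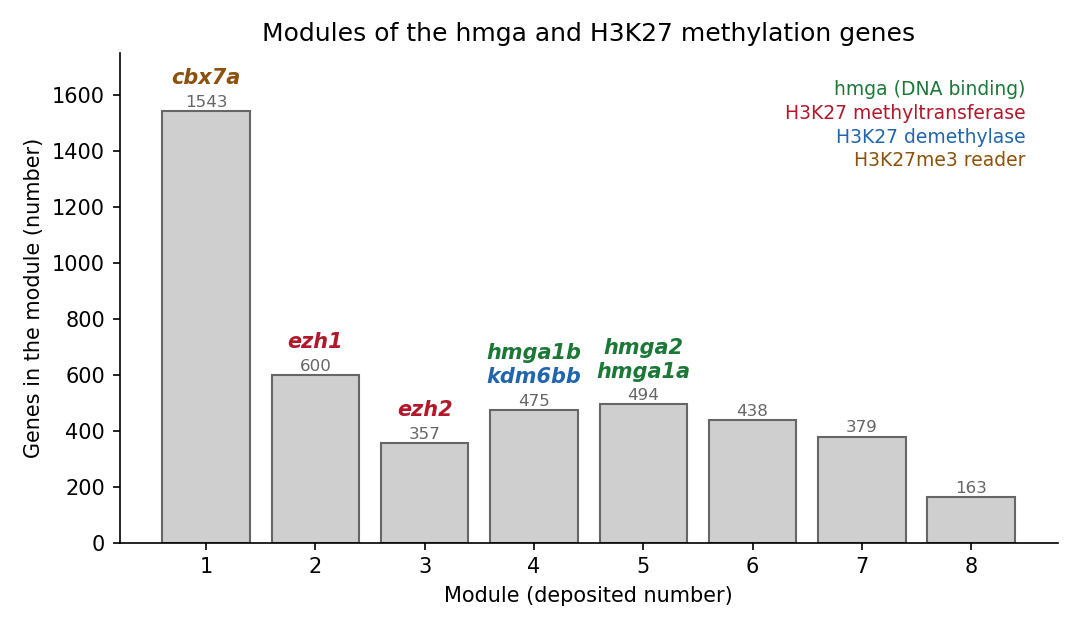
Number of genes in each deposited module (bars, with the number on top) and the modules of the 7 members, coloured by role. Module 4 holds hmga1b with kdm6bb and module 5 holds hmga1a with hmga2, while ezh1, ezh2 and cbx7a lie in modules 2, 3 and 1.

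Of the 21 pairs that the 7 genes form, 2 were in the same module (9.52%), against 18.7% of all pairs of module genes. Both same-module pairs include an hmga gene, as do most of the 21 pairs, since several members are hmga genes. Among the members neither ezh1 nor ezh2 shared a module with kdm6bb, and most pairs of module genes share none. These shares are descriptions, and no test goes with them, since the members were chosen. The lists run through the identifiers in ascending order several times, 5 or 6 times in each of the 5 modules with a member. All members but ezh2 lay in the first run of their list. In modules 1, 2, 4 and 5 the first run holds most genes (1085 of 1543, 471 of 600, 340 of 475 and 356 of 494). In module 3 it holds 174 of 357 genes. The gene ezh2 was at position 290 there, in the fourth run, and so lay outside the first run like most genes of its module. What the runs stand for is not stated.

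Some relatives of the members were read as well, chosen after their places were seen, so their number in a module is no result. A second demethylase identifier with the capitalised symbol KDM6B (ENSDARG00000088087) lay in module 1 with cbx7a, and which zebrafish copy it stands for is not known. The related demethylases KDM6A (ENSDARG00000061759) and kdm6al (ENSDARG00000059794) were in no module, nor was a further identifier named CBX7 (ENSDARG00000087181). Of the partners that Ezh proteins need in PRC2, EED, RBBP4 and both identifiers named SUZ12 were in no module. The accessory subunits AEBP2, PHF19 and MTF2 were in none either. The Polycomb gene cbx6a (ENSDARG00000071051) lay in module 6. JARID2, which helps PRC2 reach its targets, stood on 2 identifiers, 1 in module 5 with hmga1a and 1 in module 1 with cbx7a, and which copy each stands for is not known. A gene outside the modules may still be expressed, so these absences give no level.

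Each module has an annotation chart deposited by the authors, which lists Gene Ontology terms and KEGG pathways with the module genes in each. For every term it gives a fold enrichment, the share of the module's annotated genes in the term divided by the same share of a background. For the terms with a member the background has 19276 to 20439 annotated genes. Whether these were detected in the sorted cells is not stated. The charts list only terms with an unadjusted p of at most 0.1. Across the 8 charts, 7 of 834 listed terms hold a member. Of the 7, 1 has in the authors' deposited table a Benjamini-adjusted p under 0.05, against 13.9% of all listed terms. An unadjusted p under 0.05 goes with 5 of the 7 there, against 63.5% of all listed terms. Of the members, 6 of 7 (85.7%) were in at least 1 term, and so were 62.5% of all module genes.

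**Figure D2:**
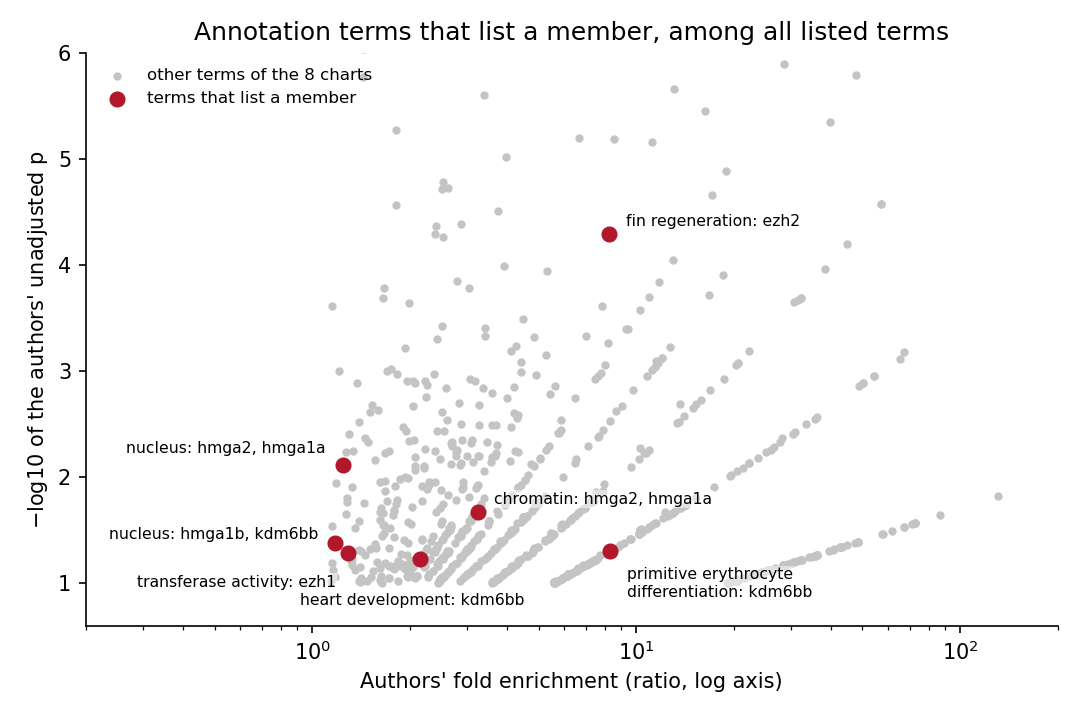
Authors' fold enrichment (log axis) against −log10 of the authors' unadjusted p for the listed terms, with the 7 terms that hold a member in red. Fin regeneration, with ezh2, stands highest among the 7, and 37 terms with smaller p lie above the axis. The other 6 terms have a p between 0.00774 and 0.0589.

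The mutated gene hmga1a and its relative hmga2 were listed in the same terms of module 5, nucleus and chromatin. For chromatin, the authors' deposited table counts 7 of 353 annotated module genes (1.98%) against 125 of 20439 in the background (0.612%). The fold enrichment in the authors' deposited table is 3.24, with p = 0.0213 and an adjusted p of 0.662. Besides hmga1a and hmga2 the term lists STAG2, a subunit of the cohesin ring, RBL1, a pocket protein that restrains the cell cycle, NSD3, a histone methyltransferase, KAT6A, a histone acetyltransferase, and TRIM13, a ubiquitin ligase. Neither term passed the adjustment, and 5.75% of the terms in that chart did. Chromatin was listed in no other chart.

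Of the 7 chromatin genes of module 5, 6 (85.7%) were also in its nucleus term, where they make up 5.56% of 108 genes, and TRIM13 was the exception. For nucleus in module 5, the authors' deposited table gives 108 of 353 annotated genes (30.6%) against 24.6% of the background. That is a fold enrichment of 1.24, with p = 0.00774 and an adjusted p of 0.338 in the authors' deposited table. Among the first other named genes of the term are MYBL1, a transcription factor, MVP, the major vault protein, mical2b, MED19 of the Mediator complex and tmpob. The H3K4 methyltransferase gene kmt2ba and, by their capitalised symbols, a JARID2 and a KDM5B identifier were also in this term. Apart from hmga1a and hmga2 themselves, no gene of module 5 was listed in exactly those terms, since the other 4 genes in both were in further terms too. In 16 of the 87 terms of this chart fewer genes are given than counted. Further terms of hmga1a or hmga2 could have been missed there.

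The paralogue hmga1b was listed in nucleus only, in module 4, and shared that term with kdm6bb. The authors' deposited table counts 98 of 337 annotated genes there (29.1%), a fold enrichment of 1.18 with p = 0.0417 and an adjusted p of 0.955. The first other named genes were ZFHX4, sertad2a, CSNK1D, a casein kinase, DEF6, CNEP1R1 and EIF5A2, a translation factor. ASH1L, a trithorax group methyltransferase, and smarca2, an ATPase of the SWI/SNF remodelling complex, were in it too. In all, 24 genes of module 4, hmga1b included, were listed in nucleus and in nothing else. No chromatin term is listed for module 4, so hmga1a and hmga1b could not be compared on it.

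**Figure D3:**
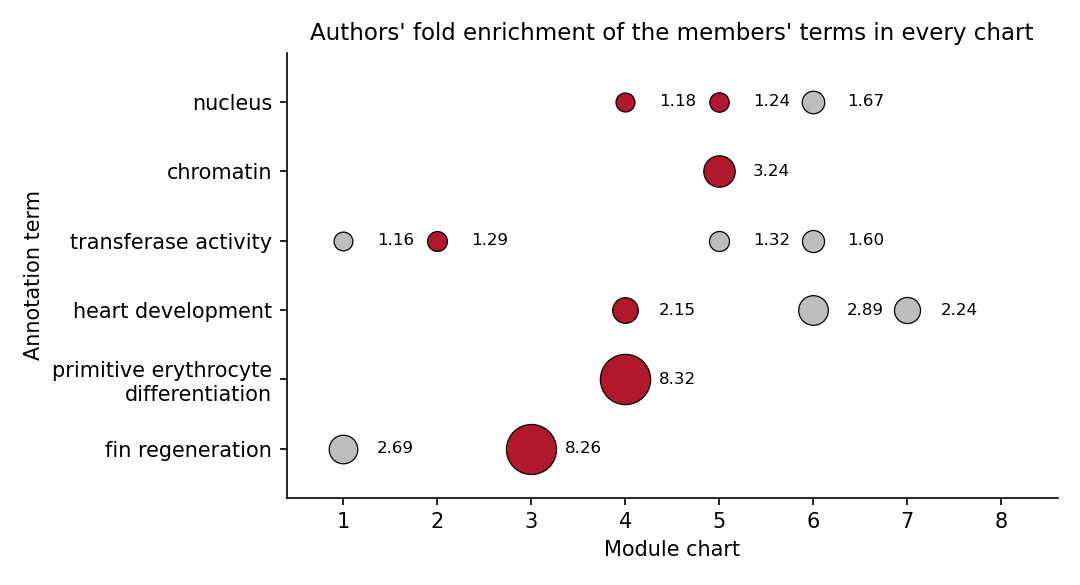
Authors' fold enrichment (circle area, value beside it) of the 6 different terms that hold a member, in every module chart that lists them. Red circles are terms that hold a member and grey ones are the same terms in charts where they hold none. Nucleus is listed for modules 4, 5 and 6, with 1.67 in module 6, which has no member.

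The demethylase gene kdm6bb was in 3 terms, the most of any member, and 21.5% of module 4 genes were in at least as many. In the authors' deposited table heart development counts 9 of 334 annotated genes (2.69%) against 1.25% of the background. Its fold enrichment in the authors' deposited table is 2.15, with p = 0.0589 and an adjusted p of 1. The first other named genes were dsc2l, a desmocollin of cell junctions, UGDH, which makes a precursor of matrix sugars, CHD7, a chromatin remodeller, TTN, the sarcomere spring titin, ZDHHC16 and CCM2, a vessel gene. The authors' deposited table lists heart development also for modules 6 and 7, at 2.89-fold and 2.24-fold, with adjusted p of 0.308 and 0.524 and without a member.

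The third kdm6bb term is primitive erythrocyte differentiation, the making of the first embryonic red cells. In the authors' deposited table it holds 3 genes, kdm6bb, CHD7 and MEIS1, a homeobox transcription factor. The fold enrichment in the authors' deposited table is 8.32, with p = 0.0496 and an adjusted p of 1, and rests on those 3 genes. All 3 were also in nucleus, and kdm6bb and CHD7 were the genes it shared with heart development. No term of module 4 passed the adjustment (0% of 78), and 43 of them (55.1%) had an unadjusted p under 0.05.

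The methyltransferase gene ezh2 was in the 1 member term that passed the adjustment, fin regeneration in module 3. The authors' deposited table counts 8 of 235 annotated genes (3.40%) against 84 of 20385 in the background (0.412%). The fold enrichment there is 8.26, with p = 5.13e-05 and an adjusted p of 0.0176 in the authors' deposited table. Its rank by p was 5 among the 87 terms listed for the module, of which 10.3% passed. The other first named genes were ACVR1B, an activin receptor, GJA1, the gap junction protein connexin 43, tubb5, a tubulin, ALDH1A2, which makes retinoic acid, the cytokine tnfa and the growth factor igf2b. In the authors' deposited table fin regeneration is also listed for module 1, the module of cbx7a, with 11 genes, a fold enrichment of 2.69 and an adjusted p of 0.514, and cbx7a is not among them. Only 1 other gene of module 3 was listed in fin regeneration and nothing else, as ezh2 was.

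The other methyltransferase gene, ezh1, was in transferase activity in module 2, a broad term that covers kinases and glycosyltransferases as well. The authors' deposited table counts 48 of 410 annotated genes (11.7%) against 9.05% of the background. Its fold enrichment in the authors' deposited table is 1.29, with p = 0.0522 and an adjusted p of 1. The first other named genes were KSR1, a scaffold of MAP kinase signalling, EHMT1, a methyltransferase for lysine 9 of histone H3, the kinase PRKCD, si:dkey-160o24.3, PTGES of prostaglandin synthesis and ggt1a. The H3K4 methyltransferase gene kmt2bb was in it too. No term of module 2 passed the adjustment (0% of 92), and 51 (55.4%) had an unadjusted p under 0.05. Transferase activity was listed for modules 1, 5 and 6 as well, and in the authors' deposited table the highest fold was 1.60, in module 6, with an adjusted p of 0.0733.

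The reader cbx7a was in none of the 202 terms listed for module 1, as were 585 (37.9%) of the module's genes. In 10 of these terms fewer genes are given than counted, so cbx7a or others of the 585 could have been missed there. For comparison, hmga1a and hmga2 were in 2 terms each, a number that 40.7% of module 5 genes reached, and hmga1b in 1 term, which 65.9% of module 4 genes reached. For ezh1 and ezh2, 1 term each, the shares were 62.3% of module 2 and 60.8% of module 3. The nuclear location that the charts give for hmga1a, hmga1b, hmga2 and kdm6bb is not given for ezh1, ezh2 or cbx7a, because the charts of modules 1, 2 and 3 list no nucleus term at all.

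**Figure D4:**
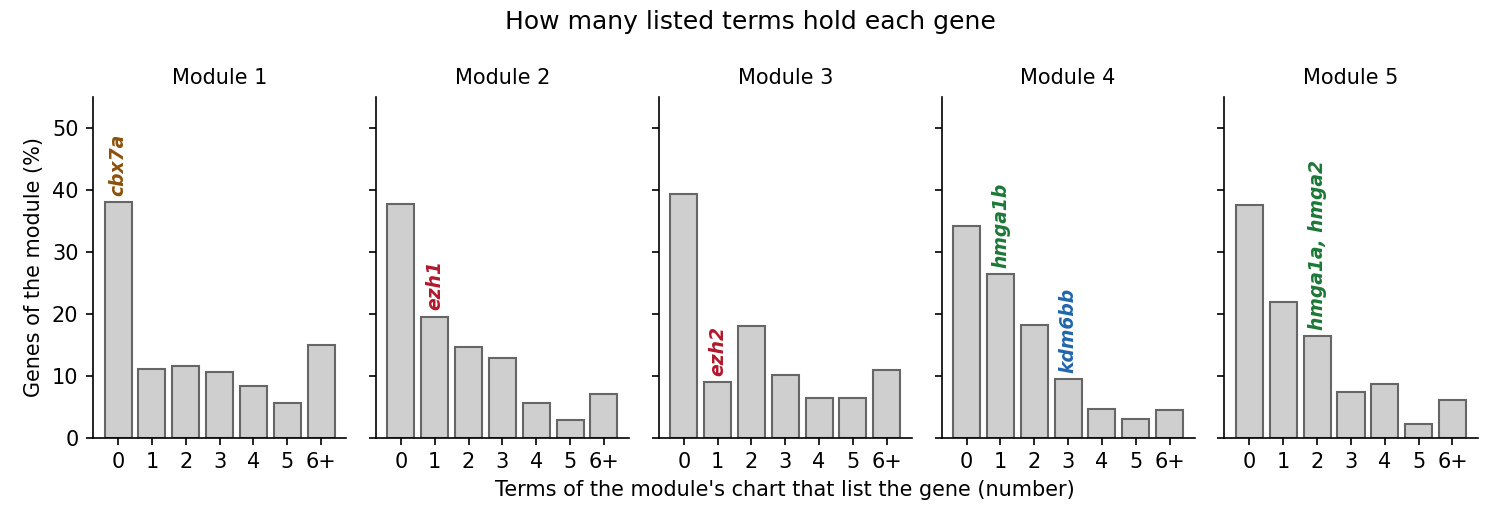
Share of module genes (%) by the number of listed terms that hold the gene, for the 5 modules with a member, with each member placed at its own number. The member cbx7a stands at 0 with 37.9% of module 1, and kdm6bb stands highest among the members, at 3.

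The wider chromatin machinery was read from 10 gene lists with 174 entries. By exact symbol 116 identifiers were found, and 22 of them (19.0%) lay in a module. Without the members that are on these lists (ezh1, ezh2, kdm6bb and cbx7a), 18 of 112 (16.1%) did, and of all identifiers with a symbol in the name table, 12.5% did. Matching capitalised symbols also without a final a or b, called the wider match here, gave 30 of 167 (18.0%). Modules 1 to 5, which each hold a member, have 34.7%, 13.5%, 8.02%, 10.7% and 11.1% of all module genes. Of the 22 list identifiers, members included, 18.2%, 22.7%, 9.09%, 18.2% and 4.55% lay there, in the same order. A list gene in a module with a member is therefore common, and such company was not tested.

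None of the 12 other high mobility group identifiers found by exact symbol, of the HMG box and nucleosome-binding families, lay in a module. By the wider match it was none of 16, hmgb1a and HMGN2 among those missing. At the 12.5% of all identifiers with a symbol, few among 12 or 16 would lie in a module anyway. Of 8 PRC2 identifiers found by exact symbol, 2 lay in a module, ezh1 and ezh2. Both are members, chosen with earlier results known, so this count is no result. No PRC2 identifier besides them lay in a module by exact symbol. Matched also without a final a or b, 4 of 12 did, the added ones being the JARID2 identifiers of modules 5 and 1. Of 20 PRC1 identifiers 3 lay in a module (3 of 29 by the wider match). These were the member cbx7a, its relative cbx6a in module 6, and USP7 in module 6, a deubiquitinase that is found with some PRC1 forms. The list of H3K27 acetyltransferases had none in a module, 0 of 1 by exact symbol and 0 of 6 by the wider match. The 1 exact match was kat7a, and KAT7 is known mainly for other histone residues. EP300 and CREBBP, which acetylate lysine 27, were found by the wider match only.

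The trithorax group opposes Polycomb silencing, and its list here holds H3K4 methyltransferases, other subunits of their complexes and ASH1L. Of this list 6 of 14 lay in a module (42.9%), and 6 of 17 by the wider match. By exact symbol this is the highest share among the 10 lists read. Of all identifiers with a symbol 12.5% lay in a module, and the difference was not tested. Of the 6, kmt2bb lay with ezh1 in module 2, kmt2ba with hmga1a and hmga2 in module 5, and setd1bb and ASH1L with hmga1b and kdm6bb in module 4. ASH2L lay in module 6 and RBBP5 in module 8, both core subunits of the H3K4 methyltransferase complexes. Like hmga1a and hmga1b, kmt2ba and kmt2bb were split between modules, as most pairs of module genes are (18.7% share a module).

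SWI/SNF remodelling subunits, which antagonise Polycomb, had 5 of 18 in a module, each in a different one. They were SMARCD2 with cbx7a in module 1, DPF3 with ezh1 in module 2, smarca2 with hmga1b and kdm6bb in module 4, SS18 in module 7 and ACTL6B in module 8. The wider match gave 6 of 27, with SMARCB1 in module 6 added. Of 14 lysine demethylases outside the Kdm6 family found by exact symbol, 2 lay in a module. These were kdm2aa with cbx7a in module 1 and kdm7aa with ezh2 in module 3. Which lysines the enzymes of this list act on was not examined here, so lysine 27 is not excluded. The wider match gave 5 of 19, with KDM2A and JMJD1C in module 1 and KDM5B with hmga1a and hmga2 in module 5. Of 15 histone deacetylases 2 lay in a module (2 of 16 by the wider match), HDAC5 with cbx7a in module 1 and hdac9b with ezh1 in module 2. The list labelled H3K9 and other repressive methyltransferases, which also holds the tet genes, had 1 of 11 in a module by exact symbol. This was tet3 in module 2, an enzyme of DNA demethylation and not a methyltransferase. The wider match gave 2 of 21, with the H3K9 methyltransferase EHMT1 added, also in module 2 with ezh1. The counts are small and were not tested.

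**Figure D5:**
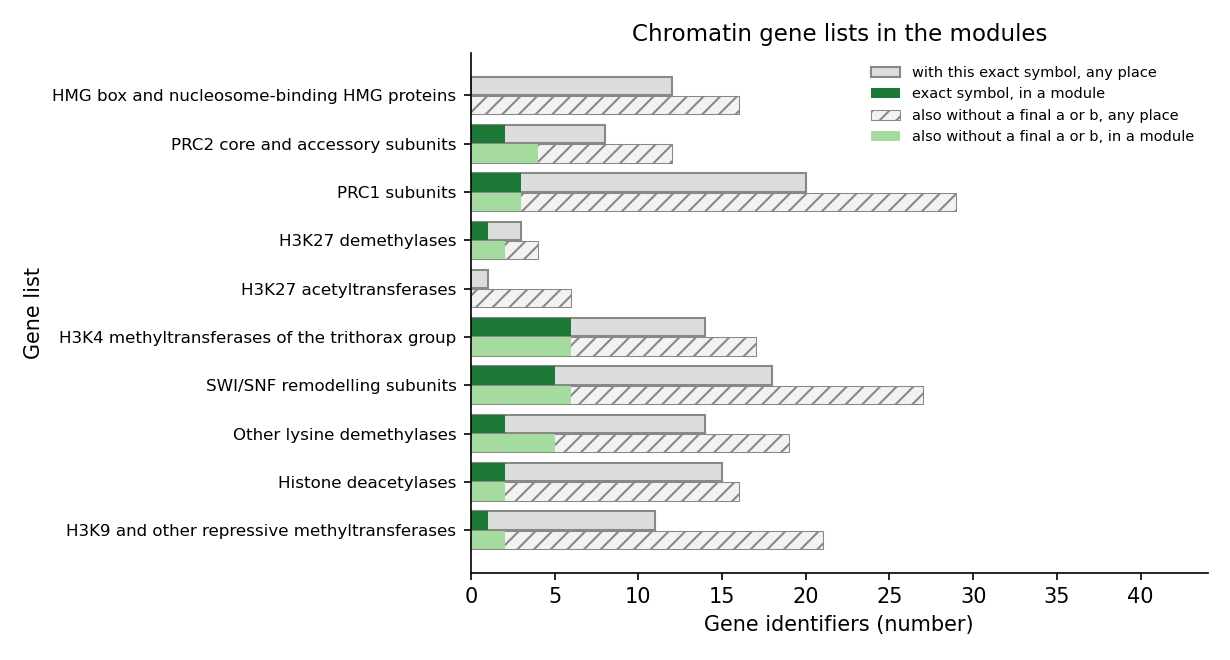
Number of identifiers found for each chromatin gene list (grey by exact symbol, hatched also without a final a or b) and the number of them in a module (dark and light green). The list labelled H3K4 methyltransferases of the trithorax group, which also holds other subunits, has 6 in a module under both ways of matching. The other high mobility group proteins have 0. Of all identifiers with a symbol, 12.5% lay in a module, and no difference between lists was tested.

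In the RefSeq gene table, 14 protein-coding genes lie next to a member (the nearest on each side), and 9 had a matching symbol. The others, with names that end in a or b, had no exact match and were not looked up by the wider match. Among them is ep300b beside cbx7a, and both identifiers named EP300 lay in no module. Of the 9, 3 lay in a module, against 12.5% of all identifiers with a symbol, a difference that was not tested. The 3 were ramp2 (module 3) and cntnap1 (module 1) on the sides of ezh1 in module 2, and pdia4 beside ezh2. The last of these, a folding enzyme of the endoplasmic reticulum, was the 1 neighbour in the same module as its member, module 3. Of all pairs of module genes, 18.7% share a module.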

How the data were processed

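Sorted zebrafish heart cells of 3 wildtype and 4 hmga1a mutant plates were sequenced by SORT-seq, per the labels' protocols. The submitters' processing notes name Seurat, without a version. No label or header read here names the aligner, the genome build, the annotation or the way the modules were made. The deposited files are 8 lists of gene identifiers and 8 annotation charts. In the charts the fold enrichment is the authors' ratio, and each p-value, with its Benjamini-adjusted form, was deposited by the authors as the headers name it. The fold was recomputed for the 7 terms with a member and matched the deposited value. In 35 of 834 terms the cell of genes holds fewer genes than the count beside it, and none of the 7 is among them, so a member could have been missed in those 35. They are 10 in module 1, 1 each in modules 2 and 3, 3 in module 4, 16 in module 5 and 4 in module 7. The numbers of terms per gene are therefore lower bounds.

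Members, lists and terms were matched by script (Python 3.11.15, pandas 2.3.3). The search of the terms and the split into runs were tested on simulated lists, and the matching by symbol was not. Symbols came from a name table in which 3651 of 4449 module genes (82.1%) have one. The RefSeq table (GRCz12tu) served for neighbours only. The members and lists were chosen with earlier results of these data known. Genes named are the members, list genes in a module, relatives of the members chosen after their places were seen, and up to 6 first named genes per term. No plate has values, so the planned exact permutation test between genotypes was not made. Protein sequences were not used here, so identities between members were not computed.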

Additional observations from a re-analysis of the deposited data

How the results depend on the processing

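All 7 members lay in a module by exact match, which is no result, since they were chosen with earlier results known. Counting capitalised symbols without a final a or b gave 8 identifiers, with KDM6B in module 1 as the added one, and reading only the first ascending run of each list gave 6, without ezh2. The first run holds most genes of every module but module 3, the module of ezh2, where it holds 174 of 357. Of the 7 terms that hold a member, 5 had an unadjusted p under 0.05 in the authors' deposited table, 7 held at least 3 genes, and 1, fin regeneration, was left at a Benjamini-adjusted p under 0.05. The fixed chromatin lists had 22 identifiers in a module by exact symbol, 30 when matched without a final a or b, and 16 in the first runs. The RefSeq table holds no Ensembl identifiers, so the alternative with its symbols was not run, nor were the alternatives on protein identity. No paired analysis was possible because no file gives a value per plate, and leaving out plates was not run for the same reason. Depth is unknown.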
